A study of Mus musculus with 4 samples.

Results

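Haematopoietic transcription factors are the DNA-binding proteins that set up and separate the blood lineages. The 10 described here are Gata1, Gata2, Spi1, Runx1, Tal1, Lyl1, Fli1, Myb, Ikzf1 and Gfi1b. They were chosen by name as factors of blood cell lineages, with no measured value in the rule but with earlier results of these data known. They make up 10 of 32812 genes with a symbol in the deposited count table. All 4 libraries came from cultured mouse cells labelled as female germline stem cells (FGSCs), of the C57BL/6 strain and beyond passage 20. A control group of 2 libraries was compared with 2 libraries of cells given spermidine, a natural polyamine, and the design text gives a time of 4 h. No dose is stated in the labels, nor how the controls were handled. The labels name replicates but not separate cultures, so p-values measure the spread between these libraries, which may be technical. The series concerns spermidine and protective autophagy, and the comparison asks how the transcriptome differed with spermidine.

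Blood transcription factors act in combinations. GATA1 drives red cell, platelet and mast cell genes, GATA2 maintains stem and progenitor cells and mast cells, and PU.1, the product of Spi1, drives myeloid and B cell genes. RUNX1, TAL1, LYL1 and FLI1 share binding regions with GATA2 in progenitors, where LMO2 and LDB1 bridge TAL1 to GATA factors. GATA4 and GATA6, which are not among the 10, are the GATA factors of the somatic cells of the ovary.

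The libraries differed in depth and make-up before any factor was considered. Total counts were 7206176 and 7128901 in the controls, against 787600 and 1718944 with spermidine. AY036118, a transcript that overlaps ribosomal RNA sequence, took 1.68% and 1.64% of the control counts and 29.6% and 30.7% of the spermidine counts. Olfactory and vomeronasal receptor genes, which most cells do not express, had counts for 24 and 63 of 1291 genes in the controls and for 856 and 124 in the spermidine libraries. The log2 ratios between replicates had an SD of 0.804 over genes in the controls and 1.87 with spermidine. Of 18 germline genes checked against the label, 7 were tested, 5 were higher and 1 lower with spermidine, and 4 of the 7 passed the filter in both spermidine libraries but not in both controls. Their summed CPM was 284, 274, 212 and 336 in control 1, control 2, spermidine 1 and spermidine 2, the order used throughout. Tex19.1, which acts in germ cells and placenta, was lower with 1955, 1770, 36 and 25 counts, and Dppa3, a germ cell and oocyte gene, was higher with 2, 3, 9 and 263. Ddx4 and Dazl, which define germ cells, had 0, 0, 1 and 0 and 0, 1, 2 and 0 counts. The germline list was thus mixed, with the counts of these defining genes at or near 0 in every library. Under the reading of the counts given below, Ddx4 and Dazl were measured on 434 and 432 bases only. The rest of either gene is not covered by these counts. The part that depth, ribosomal sequence and the receptor-gene counts play in the results below was not tested beyond the values given.

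The sequences that bear on the counts come first. The counting program is unnamed, but rows whose bases other rows also cover held almost no counts. This pattern was read as reads being counted only where they touch a single row, so that a gene is measured on the bases that no other row covers, called its own bases here. All statements on counted stretches rest on that reading. For Gata2 these are the 218 bases of its first exon at chr6:88198664-88198881 (GRCm38, plus strand), an untranslated exon. The 250 bases before that exon, at chr6:88198414-88198663, are shown because the counts assigned to Gata2 are then those of fragments that touch this exon. The 250 bases before the proximal first exon of Gata1, at chrX:7967911-7968160 on the minus strand, are shown because part of the Gata1 counts lay on that exon. Capitals mark ETS words (the letters CGGAAG, or in their place AGGAAG) and E-boxes, which read CANNTG, found on either strand.
Gata2 proximal promoter: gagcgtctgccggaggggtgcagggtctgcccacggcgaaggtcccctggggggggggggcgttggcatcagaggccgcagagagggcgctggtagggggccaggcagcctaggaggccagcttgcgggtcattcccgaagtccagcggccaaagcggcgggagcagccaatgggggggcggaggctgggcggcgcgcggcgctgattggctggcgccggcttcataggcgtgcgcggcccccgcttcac
Gata1 proximal promoter: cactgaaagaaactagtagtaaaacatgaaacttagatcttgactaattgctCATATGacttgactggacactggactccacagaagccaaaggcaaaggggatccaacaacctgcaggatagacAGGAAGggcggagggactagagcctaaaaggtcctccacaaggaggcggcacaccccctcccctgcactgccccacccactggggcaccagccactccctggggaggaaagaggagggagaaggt
The stretch of Gata2 held no capitals, and that of Gata1 held 1 ETS word and 1 E-box. Sequences are from RefSeq (GRCm38.p6), whose table holds 12 promoter windows of 8 of the factors, from 250 bases before to 50 bases after the start, and none matched Fli1 or Spi1. GATA words (the letters AGATAA, the variant AGATAG, the form TGATAA and the variant TGATAG) were present in 2 of these 12 windows, those of Tal1 and Gfi1b, against 29.8% of 32851 promoters. ETS words were in 4 of 12 against 46.5%, RUNX words (the letters TGTGGT, or in their place TGCGGT) in 1 of 12 against 22.4%, and E-boxes in 7 of 12 against 72.3%. The 2 Gata2 windows had a GC content of 69.3% and 73.7%, against a median of 52.7% over all promoters. A match describes the letters only.

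Myb was measured on 1 coding exon, chr10:21144969-21145325 on the minus strand, which is exon 10 of 16 in the annotated transcript that holds it. Only 1 of the 2 Myb rows of the table includes this exon. The first 150 of its 357 bases are printed in capitals after the last 30 bases of the exon before it, since the Myb counts are then those of fragments that touch this exon.
Myb exon 10: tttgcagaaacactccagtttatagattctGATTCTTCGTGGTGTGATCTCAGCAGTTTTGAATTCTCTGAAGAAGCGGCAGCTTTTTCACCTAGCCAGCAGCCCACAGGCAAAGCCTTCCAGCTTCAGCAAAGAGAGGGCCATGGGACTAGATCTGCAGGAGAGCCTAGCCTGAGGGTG
The 10 factors had 57 rows, of which 40 had 0 own bases and held 0 counts. Over the gene, 4 of the 10 factors (40%) had under 100 own bases, against 18.7% of all 32812 genes. Runx1 and Lyl1 had 0 own bases, Ikzf1 had 60 and Gfi1b had 99. Counts of 0 for these genes are therefore no measurement of their expression. The plot of own bases shows the counted stretch of each factor.

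**Figure D1:**
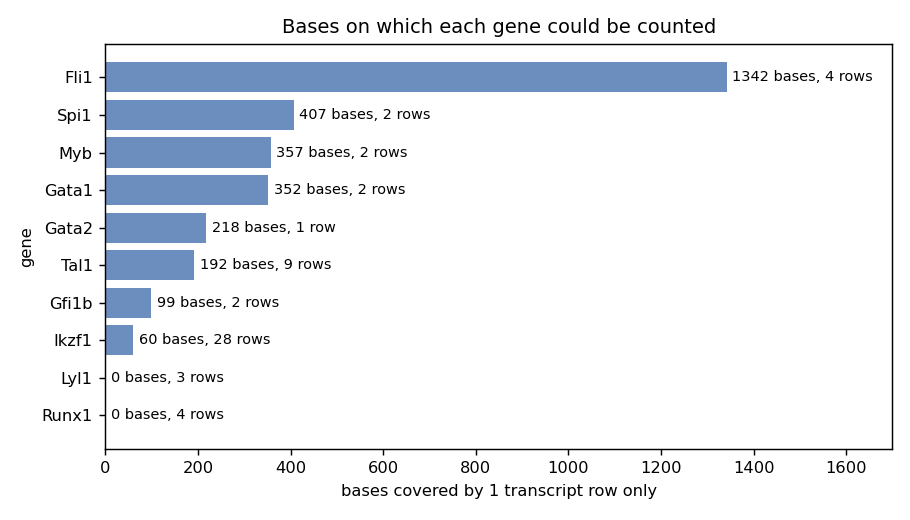
Own bases of each of the 10 factors, the bases covered by 1 row of the count table only. Fli1 had 1342, Spi1 407, Myb 357, Gata1 352, Gata2 218 and Tal1 192, while Runx1 and Lyl1 had 0.

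Gata2 was the factor with most counts and the only one of the 10 to pass the test, and it was lower with spermidine. Its counts were 1437 and 1000 in the controls, then 32 and 21 with spermidine, or 199 and 140 CPM (counts scaled to the library total) against 40.6 and 12.2. Both spermidine libraries lay below both controls, and the groups did not overlap. The log2 fold change was -2.84 ± 0.66 (SE, 2 libraries a group). In edgeR's quasi-likelihood test its p, adjusted by the Benjamini-Hochberg method, was 0.0119. Pooled over the libraries of each group, the control CPM was 8.04 times the spermidine CPM (95% interval 6.13 to 10.8, counting error only). At the control rate, 426 counts would fall in the spermidine libraries together, against 53 seen. Leaving AY036118 out of the totals lowers the 426 to 302, and so the ratio. In bulk RNA, fewer cells of a type and less RNA per cell cannot be told apart.

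Among the 7836 genes tested, 2256 (28.8%) were called at an adjusted p under 0.05, with 1943 (24.8%) higher and 313 (3.99%) lower. Of the 10 factors, 3 passed the low-count filter, 1 was called lower and 0 were called higher, and 2 of the 3 had an unadjusted p under 0.05 in edgeR. Of 5135 genes past the filter in both controls, as these 3 were, 6.1% were called lower. Both spermidine libraries lay below both controls for 29.6% of all tested genes. The median log2 fold change over all tested genes was 0.23. The call of Gata2 was lost without control 1, control 2 or spermidine 1. Its adjusted p (edgeR) was 0.183 without control 1, 0.0541 without control 2, 0.0670 without spermidine 1 and 0.00544 without spermidine 2, with log2 fold changes between -3.56 and -2.22.

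**Figure D2:**
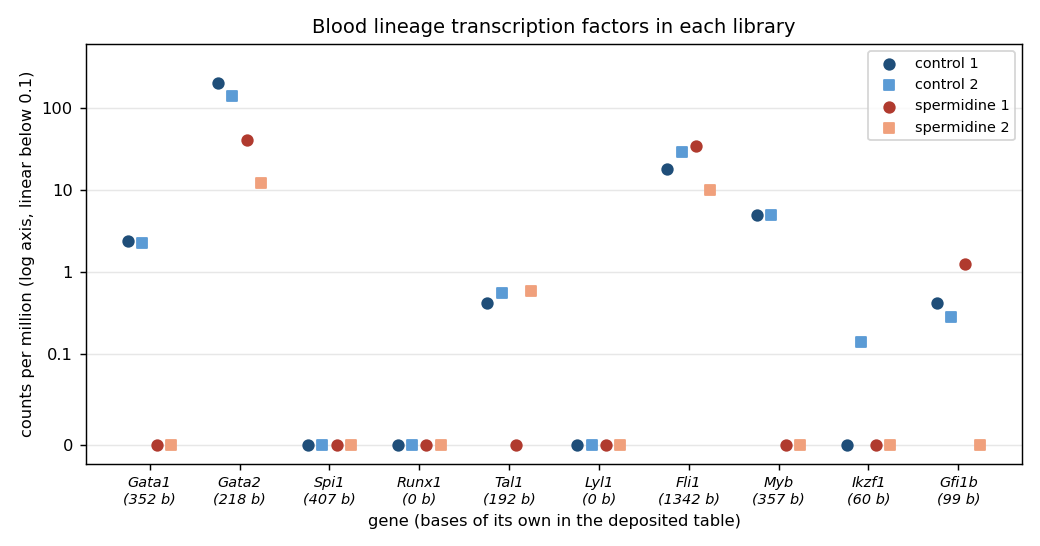
CPM of each factor in the 4 libraries (log axis, linear near 0), 1 point per library, with own bases in brackets. Gata2 fell from 199 and 140 CPM to 40.6 and 12.2, while the Fli1 points of both groups overlap.

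The Gata2 locus holds a second, distal start, and it moved the same way. A RefSeq model transcript without a symbol shares 3025 bases with the Gata2 row and has an own first exon at chr6:88193437-88194000, of 564 bases. The GENCODE annotation has an untranslated Gata2 exon over 110 of these bases. Counts on the distal exon were 2061 and 1532 in the controls against 21 and 12 with spermidine, or 286 and 215 CPM against 26.7 and 6.98. Its log2 fold change was -4.09 ± 0.69 (SE, edgeR, adjusted p = 0.00627). Without control 1 its adjusted p (edgeR) was 0.0750, and without spermidine 1 it was 0.0502.

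Within a library, the share of the distal exon among counts on both first exons does not depend on the library total. It is not scaled to length, with 564 own bases in the distal exon and 218 in the proximal exon. The share thus does not show which start was used more. It was 58.9% in control 1 (exact Clopper-Pearson 95% interval 57.3 to 60.6) and 60.5% in control 2 (58.6 to 62.4). It was 39.6% in spermidine 1 (26.5 to 54.0) and 36.4% in spermidine 2 (20.4 to 54.9). Both spermidine shares were below both controls, and the intervals of the groups did not overlap. An exact permutation test over the libraries gave a two-sided p of 0.333, the smallest that 2 against 2 allows. With the distal row added to Gata2, the log2 fold change was -3.42 (edgeR, adjusted p = 0.00748).

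Other transcripts inside the locus had fewer counts. Gm38708, a noncoding gene on the opposite strand, had 174, 109, 3 and 2 counts and a log2 fold change of -3.19 ± 1.03 (SE, edgeR, adjusted p = 0.0424). Its call was lost without any 1 of the libraries, with adjusted p values (edgeR) between 0.0644 and 0.289. A noncoding model in the first intron of the distal form had 284, 174, 7 and 5 counts and did not pass the test (edgeR, log2 fold change -2.62 ± 0.88 SE, adjusted p = 0.0544). The row counts left out reads over several rows without regard to strand, so sense and antisense reads cannot be told apart here.

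**Figure D3:**
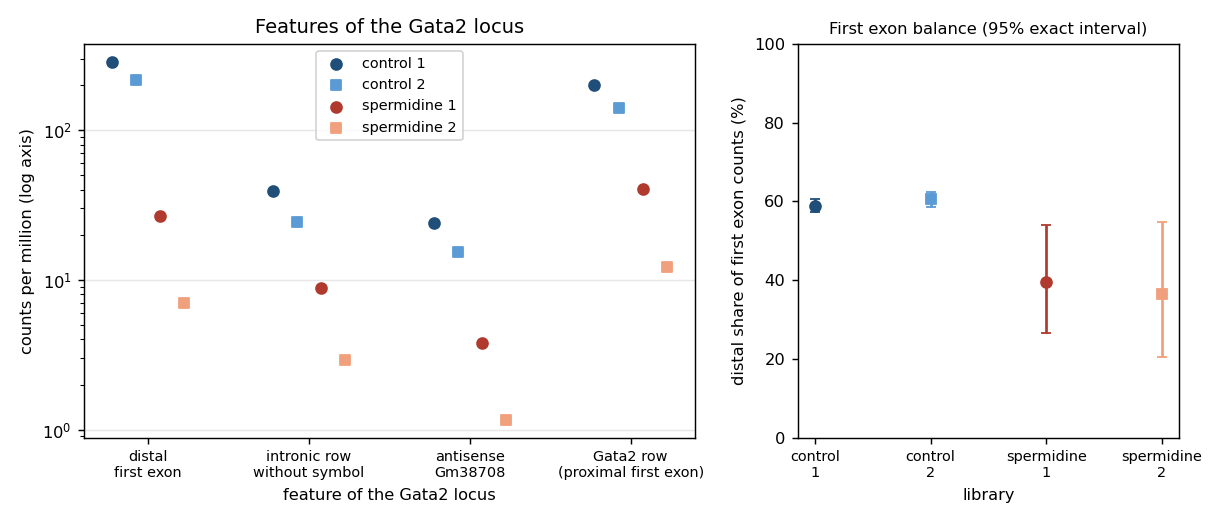
Left, CPM (log axis) of 4 counted features of the Gata2 locus in each library, and right, the distal share of first exon counts in percent with its exact 95% interval. The distal and proximal first exons held 286 and 199 CPM in control 1 and 6.98 and 12.2 CPM in spermidine 2. CPM and share are not scaled to length (564 own bases distal, 218 proximal).

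Gata1, the factor of red cell, platelet and mast cell genes, had counts in the controls only, 17 and 16, against 0 and 0 with spermidine. The counts lay on both of its first exons, with 5 and 11 counts on the proximal exon (chrX:7967767-7967910) and 12 and 5 on the distal exon (chrX:7976480-7976682). Neither start led in both controls. At the control rate, 5.77 counts would fall in the spermidine libraries together, or 4.09 when AY036118 is left out of the totals. Set against a floor of 3 counts over the spermidine group, the control rate was 1.92 times as high, or 1.36 times without AY036118. These values leave out the counting error of the controls, so they are no lower bounds. Gata1 passed the 2.26 CPM filter in 1 control and was not tested.

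Fli1, an ETS factor of megakaryocytes and vessel cells, gave 129 and 206 control counts against 27 and 17 with spermidine, or 17.9 and 28.9 CPM against 34.3 and 9.89. The spermidine libraries lay above and below the controls, so the groups overlapped. The log2 fold change was -0.25 ± 0.75 (SE, edgeR, adjusted p = 0.836). The pooled control CPM was 1.33 times the spermidine CPM (95% interval 0.970 to 1.87, counting error only). At the control rate, 58.6 counts would fall in the spermidine libraries together, against 44 seen. Without AY036118 in the totals 41.5 would fall there, so the direction of this ratio depends on AY036118. The receptor-gene rate would place 4.25 of the 27 counts of spermidine 1 on the own bases of Fli1, and at most 0.236 in each other library. Its direction turned without control 2 (0.15) and without spermidine 2 (0.42).

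Fli1 counts came almost wholly from the first exon at chr9:32541191-32541452, of 262 bases. This exon held 93.0% (exact 95% interval 87.2 to 96.8) and 95.1% (91.3 to 97.6) of the Fli1 counts in the controls. It held 88.9% (70.8 to 97.6) and 94.1% (71.3 to 99.9) with spermidine. The intervals of all 4 libraries overlapped. Spi1, the other ETS factor, had 0 counts on 407 own bases in every library, which allows up to 0.416, 0.421, 3.81 and 1.75 CPM at 3 counts. Of these bases, 357 belong to a RefSeq model row and 50 to the curated transcript, so the zeros say little of the curated form.

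Myb, a factor of immature blood cells of several lineages, gave 36 and 35 control counts against 0 and 0 with spermidine. All are counts of the 1 of 2 Myb rows that includes exon 10, so the form without this exon was not measured. The groups did not overlap, but Myb passed the filter in both controls and in neither spermidine library, which fixes this. At the control rate 12.4 counts would fall in the spermidine libraries, or 8.79 without AY036118. Set against a floor of 3 counts over the group, the control rate was 4.14 times as high, or 2.93 times without AY036118. The counting error of the controls is left out here too, so these are no lower bounds. Myb did not pass the test (edgeR, adjusted p = 0.0720), and no fitted fold is given since 1 group is at 0. Myb passed the filter through the controls alone. Of 155 genes that did so, 13 (8.39%) were called lower. Without control 2 its adjusted p (edgeR) was 0.0390.

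The bHLH factors Tal1 and Lyl1 open and maintain the blood programme in the embryo and in stem cells. On 192 own bases Tal1 gave 3 and 4 control counts against 0 and 1 with spermidine. All lay on RefSeq model rows, on stretches of 106 and 39 bases outside the GENCODE exons of Tal1. The 44 own bases of a curated row, within such an exon, had 0 counts in every library. The Tal1 values therefore say little of the annotated exons. The pooled control CPM of Tal1 was 1.22 times the spermidine CPM, with a 95% counting interval from 0.157 to 55.2. Without AY036118 in the totals, 0.867 counts would fall with spermidine at the control rate, against 1 seen. No difference was detectable at this depth. Lyl1 and Runx1, the factor that starts definitive blood formation, had 0 own bases and 0 counts. The 3 rows of Lyl1 cover one another, with 1831 bases that rows of no other gene cover.

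Ikzf1, the lymphoid zinc finger factor Ikaros, had 0, 1, 0 and 0 counts on 60 own bases. Gfi1b, a repressor of red cell and platelet precursors, had 3, 2, 1 and 0 counts on 99 own bases. These lie within a coding exon at chr2:28611585-28611683. All are counts of 1 of the 2 Gfi1b rows. The other row has 0 own bases, so that form was not measured. The pooled Gfi1b ratio of control to spermidine CPM was 0.874 (95% interval 0.0978 to 41.4, counting error only). Neither gene could be compared. In sum over the 10 factors, 1625 and 1264 counts in the controls stood against 60 and 39 with spermidine. Gata2 alone made up 88.4% and 79.1% of the control sums and 53.3% and 53.8% of the spermidine sums.

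Levels of the factors could be ordered per length. Gata2 had a mean of 779 CPM per kb of own bases in the controls, which placed it at the 99.5th percentile of 26662 genes with at least 100 own bases. With spermidine it had 121 CPM per kb and stood at the 98.0th percentile. Fli1 followed with 17.4 and 16.5 CPM per kb in the controls and with spermidine. Myb came next in the controls with 13.9, then Gata1 with 6.54 and Tal1 with 2.55. The Tal1 counts lay outside its GENCODE exons, as given above. Over all its own bases, Fli1 in the controls, at 13.3 and 21.5, overlapped with Myb, at 14.0 and 13.8. On its 262-base first exon alone, Fli1 had 63.6, 105, 116 and 35.5 CPM per kb, above Myb in every library, so the overlap depends on the bases used. Fragments that reach beyond the own bases are counted too, so short stretches read high on this scale.

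Ratios of counts between genes of the same library are free of its total. These pairs were chosen after their values were seen. Gata2 had 11.1 and 4.85 times the counts of Fli1 in the controls and 1.19 and 1.24 times with spermidine. Against Itga2b, the platelet integrin gene that GATA and ETS factors bind in megakaryocytes, the ratio was 0.250, 0.215, 0.235 and 0.160. Against Plek, a leukocyte and platelet gene, it was 0.182 and 0.171 in the controls and 0.390 and 0.362 with spermidine. The ratio to Fli1 thus separated the groups downwards, the ratio to Plek upwards, and the ratio to Itga2b overlapped. The exact permutation p was 0.333 for the first and for Plek and 0.667 for Itga2b, two-sided and before adjustment for the 8 ratios computed.

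Partners of these factors did not pass the test with all 4 libraries. Of 20 listed partners, 6 were tested, 0 were called in either direction with edgeR or DESeq2, and 0 had an unadjusted p under 0.05 in edgeR. Without spermidine 2, Hdac1, a histone deacetylase named after its values were seen, was called lower (edgeR, log2 fold change -1.56, adjusted p = 0.0147), against -1.10 and 0.166 with all libraries. The median log2 fold change of the partners was -0.35 against 0.23 for all tested genes. Zfpm1, the FOG1 cofactor of GATA1, had 92, 103, 18 and 4 counts (log2 fold change -0.44 ± 0.94 SE). Ldb1, which bridges distant elements, had 143, 229, 17 and 49 counts (0.05 ± 0.68 SE). Their adjusted p values (edgeR) were 0.759 and 0.968, and both signs turned under some settings. On the Zfpm1 row with most counts alone, the log2 fold change was -4.27 (edgeR, adjusted p = 0.0718). Lmo2, the adaptor of TAL1, had 5, 8, 5 and 2 counts and was not tested. Cbfb, the partner of RUNX proteins, had 31 own bases and 0 counts.

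Other blood lineage transcription factors moved both ways. Of 59 listed genes, 22 were tested, 2 were higher and 3 lower, and the median log2 fold change was -0.36. Id3, an inhibitor of bHLH factors, was higher with 35, 92, 98 and 971 counts (5.45 ± 0.99 SE, edgeR, adjusted p = 0.00711). Sox4, a factor of B cell precursors that many tissues also express, had 53, 470, 186 and 1181 counts (3.80 ± 1.04 SE, edgeR, adjusted p = 0.0245). The controls of these genes differed several-fold between themselves. Both calls were lost without control 1 and without spermidine 1.

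Batf, a bZIP factor of lymphoid and other immune cells, was lower with 574, 899, 26 and 20 counts (-2.33 ± 0.66 SE, edgeR, adjusted p = 0.0287). Runx3, a Runt factor of T cells and other leukocytes, had 556, 558, 19 and 20 counts (-2.20 ± 0.64 SE, edgeR, adjusted p = 0.0309). Id2, a bHLH inhibitor of innate lymphoid cells, had 3012, 2733, 69 and 236 counts (-1.74 ± 0.57 SE, edgeR, adjusted p = 0.0491). With all 4 libraries, the list had 0 lower calls with limma-voom, with a replicate block and with the receptor-gene rate subtracted. The same held with no low-count filter, at 1 CPM in all libraries and with thinning. All 3 lower calls were lost without control 1, without control 2 and without spermidine 1. The list then had 0 higher and 0 lower calls without control 1 or spermidine 1, and 5 higher and 0 lower without control 2.

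**Figure D4:**
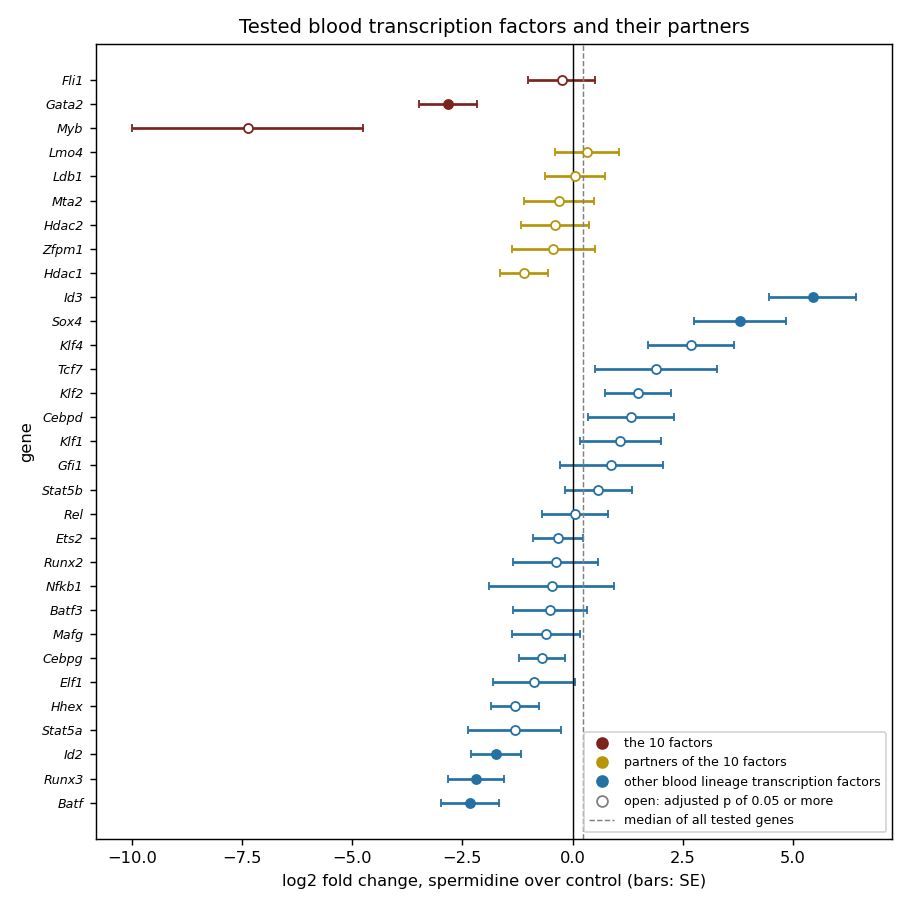
Log2 fold change (spermidine over control, with SE bars, filled where called, dashed line at the median of all tested genes) of the tested genes among the 10 factors, their partners and other blood lineage factors. Gata2 lies at -2.84, Batf at -2.33 and Id3 at 5.45, and the fitted value of Myb is no bound since its spermidine counts are 0.

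Markers of blood cells were mixed beside Gata2. Of 18 pan-leukocyte genes, 10 were tested, 5 were lower and 0 higher, with a median of -2.33. Plek had 7913, 5844, 82 and 58 counts (-3.91 ± 0.65 SE), and the summed CPM of the list was 2717 and 2659 in the controls and 809 and 219 with spermidine. Of 21 mast cell and basophil genes, 7 were tested and 2 were lower, Cpa3 (924, 549, 10 and 7 counts) and Fcer1g (1799, 1186, 35 and 23 counts). The summed CPM of that list was 622, 498, 317 and 403, its median log2 fold change was 0.38, and 4 of the 5 other tested genes had positive values, from 0.38 to 1.20. Of 18 megakaryocyte and platelet genes, 5 were tested and 2 were lower, Itga2b (5738, 4658, 136 and 131 counts) and F2rl2 (988, 1097, 25 and 20 counts). The median of that list was 0.05, and the 3 other tested genes had values of 0.05 (Ppbp), 0.21 (Selp) and 2.24 (Pf4), none of which passed the test. Without control 1 these 3 lists had 0 calls, and without spermidine 1 they had 2 lower pan-leukocyte calls and 0 in the other lists. Without control 2 they had 1, 2 and 0 lower calls in the same order. Kit, the stem cell factor receptor of progenitors and mast cells, had 9, 13, 0 and 1 counts and was not tested.

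Erythroid and vessel genes went the other way. Of 22 erythroid genes, 5 were tested and all 5 of these were higher, with a summed CPM of 16.7, 15.4, 343 and 678. Of these 5, 3 passed the filter in both spermidine libraries but not in both controls, so their entry into the test favoured a higher value. Hba-a1, a haemoglobin gene with a near-identical copy whose reads may be split, had 20, 28, 63 and 554 counts. Of 28 macrophage, monocyte and granulocyte genes, 13 were tested, 7 were higher and 1, Ctsg (2976, 3394, 105 and 32 counts), was lower. Of the 7 higher genes, 6 entered the test in the same way, and Cd68, Tyrobp and Fcgr1, which both controls passed, had values of -1.82, -1.68 and -1.41 that did not pass the test. Of 15 endothelial genes, 5 were tested and all 5 were higher, Tie1 with 4, 1, 49 and 79 counts. All 5 passed the filter in both spermidine libraries, 1 of them (Sox18) in 1 control as well and none in both controls. Without control 1 the erythroid, myeloid and endothelial lists had 0 calls, and without spermidine 1 they had 1, 0 and 2 higher calls. Granulosa and theca genes had a summed CPM of 156, 131, 2627 and 5794, and oocyte genes 1.39, 2.67, 196 and 1962. The part that a different mix of cells played in the values of the 10 factors was not tested.

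**Figure D5:**
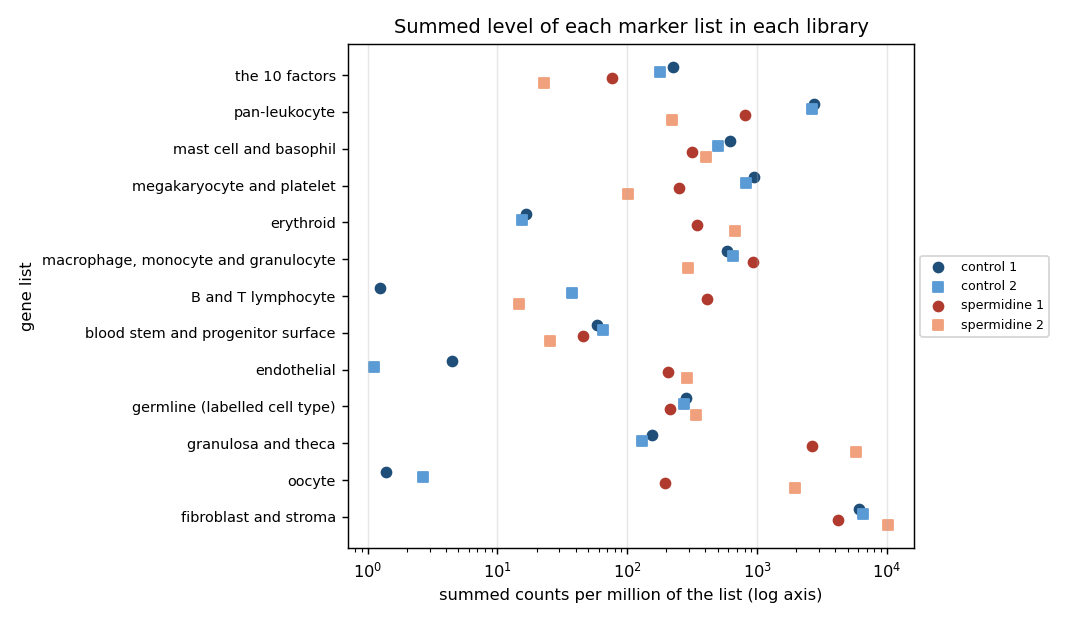
Summed CPM of each marker list in the 4 libraries, on a log axis. Pan-leukocyte genes lie at 2717 and 2659 in the controls and at 809 and 219 with spermidine, while endothelial genes lie at 4.44 and 1.12 and then at 207 and 287.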

How the data were processed

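RNA was measured by sequencing in 4 libraries, 2 controls and 2 with spermidine. The authors deposited whole-number counts per RefSeq transcript row (106519 rows), not normalized, as the values show. HISAT2, DESeq2 and mm9 are named, with no roles, per the submitters' processing notes, but the positions of the rows fit GRCm38. No source used here names the counting program. Rows were matched to symbols (80.8%) and summed per gene. Rows without bases of their own held at most 0.0014% of any library, and own bases were computed without regard to strand.

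Genes were filtered with edgeR 4.0.16 (filterByExpr, minimum count 10, minimum total 15), scaled by TMM and tested with its quasi-likelihood test in R 4.3.3, with Benjamini-Hochberg adjustment over all 7836 genes at 0.05. limma 3.58.1 (voom), DESeq2 1.42.0, other scalings and filters, thinning and left-out libraries were alternatives. The legacy edgeR test, genes with a single row, subtraction of the receptor-gene rate and addition of the distal Gata2 row were chosen after seeing the data. A gene that did not pass the test is not shown to be alike in both groups. Intervals cover counting error only, and the floor of 3 counts covers that of the counts of 0 alone, since reads carry no molecular identifiers.

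The 10 factors and the gene lists were chosen with earlier results of these data known. A listed gene is left out of its list and not reported here. All 10 factors are described. From most other lists, counts are given with at most the 3 called genes of smallest p per direction, plus Lmo2, Ldb1, Zfpm1 and Cbfb. The granulosa and theca list and the oocyte list are given as summed CPM only. The fibroblast and stroma list is shown only in the plot of marker lists. Other genes named with values (Ddx4, Dazl, Kit, Hdac1, Ppbp, Selp, Pf4, Sox18, Cd68, Tyrobp, Fcgr1, neighbours of Gata2 and the ratio pairs) were chosen after values were seen.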

Additional observations from a re-analysis of the deposited data

How the results depend on the processing

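The log2 fold change of Gata2 was negative under all 19 alternatives run, between -3.56 and -1.76, and its call was kept under 13. Beside the left-out libraries, the call was lost with no low-count filter (-3.38, adjusted p = 0.264), at 1 CPM or more in all 4 libraries (-2.39, 0.0642) and with all libraries thinned to 554572 counts (-1.76, 0.0994), all with edgeR. The number of the 10 factors called lower was then 0. It was 2 with the legacy edgeR test and with limma-voom, where Myb was called too (adjusted p = 0.0489 and 0.0201), and 0 to 1 with a library left out. Without control 2 the 1 called was Myb and not Gata2. None of the 10 was called higher under any of the 19. Over all genes, 2256 calls became 0 with no filter (4255 at an unadjusted p under 0.05 in edgeR), 275 at 1 CPM in all libraries, 848 thinned and 1495 with the receptor-gene rate subtracted. With a library left out they ranged from 0 (without control 1, 1926 unadjusted) to 3725 (without spermidine 2), with 484 without spermidine 1 and 1513 without control 2. The log2 fold change of Fli1 turned to 0.20 at 1 CPM in all libraries, 0.15 without control 2, 0.42 without spermidine 2 and 0.55 thinned. That of Ldb1 turned to -0.38 with no filter, -0.00070 with the replicate block, -0.20 without control 1 and -0.40 without spermidine 2. That of Zfpm1 turned to 0.042 at 1 CPM, 0.61 without spermidine 2 and 0.35 thinned. With 1 library left out, the values lay between -1.0 and 0.42 for Fli1, -0.40 and 0.41 for Ldb1, and -2.30 and 0.61 for Zfpm1. The cause was not tested. Replicate numbers were not shown to pair the libraries (correlation of deviations across genes -0.0299). With the replicate block 1775 genes were called, Gata2 had -2.88 (edgeR, adjusted p = 0.0252) and the other blood factors 3 higher and 0 lower. With 787600 counts in the smallest library, a factor under 3.81 CPM lies below the floor of 3 counts there.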

Other observations

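Neighbouring noncoding transcripts of the factors other than Gata2 had few counts. Gm33786, inside the Tal1 span, had 4, 4, 0 and 0 counts in control 1, control 2, spermidine 1 and spermidine 2. Gm30281, inside the Runx1 span, had 1, 5, 4 and 0, and Gm39488, across Gata1, had 1, 0, 0 and 0. A noncoding model inside Ikzf1 had 10, 23, 7 and 0 counts (edgeR, log2 fold change 0.42 ± 1.31 SE, adjusted p = 0.837). Among surface genes of blood stem and progenitor cells, 4 of 10 were tested. Cd48, a leukocyte surface gene, was lower with 376, 399, 7 and 0 counts (edgeR, adjusted p = 0.0189), a call lost without control 1 (0.127) and without control 2 (0.0639). Thpo, the thrombopoietin gene, was higher with 1, 0, 5 and 24 counts (edgeR, adjusted p = 0.00755). Receptor genes had 3.17 counts per kb of own bases in spermidine 1, where Thpo, with 1682 own bases, had 5 counts. With the receptor-gene rate subtracted, 3 genes of the list were tested, 0 were higher and 1 was lower. Of 23 B and T lymphocyte genes, 3 were tested, and Blnk, a B cell adaptor, was higher with 6, 3, 56 and 10 counts (edgeR, adjusted p = 0.00902). The call of Blnk was lost without control 1 (0.0750) and without spermidine 1 (0.0829), and that of Thpo without control 1 (0.0750). Thpo and Blnk passed the filter in the spermidine libraries and in neither control, so they entered the test because they were high there.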
